A study of Homo sapiens with 12 samples.

Results

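The 5' untranslated region (5' UTR) is the part of an mRNA between its first base and its start codon. Here the PAR-CLIP clusters that lay in 5' UTRs were described for 5 RNA-binding proteins. A cluster was taken as a 5' UTR cluster when its midpoint, on its own strand, fell in a 5' UTR of a protein-coding transcript of GENCODE release 44 and in no coding sequence or 3' UTR of such a transcript. Of 96139 clusters on chromosomes 1 to 22, X and Y in all 12 libraries, 1753 met this rule (1.82%). They lay in 657 of the 19241 protein-coding genes with an annotated 5' UTR (3.41%). The libraries came from the human liver cancer line HepG2, of wildtype genotype in every sample, after labelling of the RNA with 4-thiouridine, ultraviolet crosslinking and digestion with RNase T1. IGF2BP1, IGF2BP2, METTL1 and WDR4 each had 2 libraries, and IGF2BP3 had 4, a first pair and a pair labelled bio2. No library of input RNA was used here, so a cluster in a gene cannot be separated from the abundance of its mRNA.

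The 5' UTR carries the scanning ribosome from the cap to the start codon, and its length, its structure and any upstream start codon set how often translation begins. The IGF2BP proteins (insulin-like growth factor 2 mRNA-binding proteins) take their name from the 5' UTR of IGF2, a fetal growth factor, and bind RNA through paired KH domains with a known preference for CA-rich elements. METTL1 is the enzyme that writes m7G in tRNA and, internally, in mRNA, and WDR4 is its non-catalytic partner. The study examined the IGF2BP proteins as readers of that mark.

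The 5' UTR sites found in the most libraries were pyrimidine-rich. Clusters of all libraries that overlapped by at least 1 nt were merged into 840 sites, and the 15 sites present in the most libraries were taken. Of these, 11 were mainly of single-copy sequence (the central 20 nt occurring once in hg38 on both strands), and 10 of them are shown here, because they carry the feature that most 5' UTR clusters shared. Each line gives 30 nt of hg38 on the strand of the transcript, 5' to 3', with runs of at least 6 C or T in capitals.
IGF2 (chr11:2139299-2139328, minus strand, 12 libraries): ccccgCCTCCTggcccacgcctgcccgcgc
IGF2 (chr11:2139144-2139173, minus strand, 12 libraries): ccgCCTCCTCTTCatctacctcaaCTCCCC
IGF2 (chr11:2139004-2139033, minus strand, 10 libraries): gcagcctcgggccgCTCCCCTTTCCgcgct
IGF2 (chr11:2138558-2138587, minus strand, 11 libraries): ccctcgCCCTCTCTTCggCCCCCCCCTTTC
DR1 (chr1:93346432-93346461, plus strand, 11 libraries): cccaCTTTCTTCCCaaactcatcctaaatc
PROX1 (chr1:213988079-213988108, plus strand, 11 libraries): TTCTCTTCTTTaCCCTTCTCCTCTCTCCTC
FN1 (chr2:215435937-215435966, minus strand, 11 libraries): ctgTCCCTCCacccgTCCCCTTCCCCaccc
FTL (chr19:48965373-48965402, plus strand, 11 libraries): gaCTCTCTTCCagcctccgaccgCCCTCCg
DHRS3 (chr1:12617700-12617729, minus strand, 10 libraries): TTTTTTTTTTTCTTCCCCTCCCTaaactcc
PTMS (chr12:6766229-6766258, plus strand, 10 libraries): tccccaCCTCTCCaaCCTCCTCTTTCatcc

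Sites that METTL1 and WDR4 lacked, or that the IGF2BP proteins lacked, were looked at next. They were picked after the data were seen, so they are a description. With all 4 IGF2BP3 libraries and no METTL1 or WDR4 library there were 6 sites, 5 of them single-copy. Each of the 5 was also found with other IGF2BP proteins, and 3 of them held CAU followed by A, C or U. Among all 5' UTR clusters of the IGF2BP3 libraries, widened for the search, 44.6% to 56.8% held this element. So 3 of 5 does not set these sites apart, and no share for 30 nt stretches was calculated. The element is shown in capitals as CAT and the base after it.
GASK1B (chr4:158171501-158171530, minus strand): cttCATCaccaaccctttccttccacctct
MBNL2 (chr13:97276062-97276091, plus strand): ctgtcCATAcactctctCATCatcctgttc
PTCHD4 (chr6:48069281-48069310, minus strand): cttcacCATTtatttcctcttcaattcact
PTCHD4 (chr6:48111087-48111116, minus strand): agaaatcccctctcactctccaattctgtt
ATP6V1E1 (chr22:17628673-17628702, minus strand): ttctctcacctcacctttcaaacctaaact
With at least 3 of the 4 METTL1 and WDR4 libraries and no IGF2BP library there were also 6 sites, in MEX3A, SLC52A2, ASPH, NTMT1, CDKN1B and DPP8. Of these, 4 were single-copy (MEX3A, SLC52A2, ASPH and CDKN1B). CDKN1B alone is shown, as an example that does not stand for the set, with GGGG or longer in capitals.
CDKN1B (chr12:12717742-12717771, plus strand): ttccgagaGGGGttcgggctgcgtaGGGGc

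The libraries held 4157 to 15051 clusters on the chromosomes used, and 67 to 286 of these were 5' UTR clusters. The files give intervals only, so the read depth behind each cluster is unknown, and the Wilson intervals of shares cover counting error only. The liver genes ALB, APOB and SERPINA1 had exonic clusters in 10, 12 and 12 libraries and AFP in 5, while TTR had none. The bio2 pair stood apart from the first IGF2BP3 pair: 5' UTR clusters overlapped between the pairs in 30.1% to 40.5%, against 68.0% within the first pair and 70.8% within the bio2 pair. Tests between groups of proteins are therefore given with and without the bio2 libraries. The p-values compare libraries, and libraries of 1 protein share an antibody, so the spread they measure may be partly technical.

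METTL1 and WDR4 placed a larger part of their clusters in 5' UTRs than the IGF2BP proteins did. The difference was clearest among clusters in mRNA exons (5' UTR, coding sequence and 3' UTR together). METTL1 had 217 and 286 5' UTR clusters, which were 10.7% (95% Wilson interval 9.44 to 12.1) and 10.8% (9.67 to 12.04) of its mRNA exon clusters. WDR4 had 187 and 149, or 7.11% and 7.14%. IGF2BP1 had 192 and 205, or 2.41% and 2.33%. IGF2BP2 had 79 and 117, or 3.31% and 3.20%. IGF2BP3 had 67 and 83 in the first pair, or 1.85% and 2.18%, and 90 and 81 in the bio2 pair, or 2.41% and 2.38%. Every METTL1 and WDR4 library lay above every IGF2BP library.

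The mean over libraries was 2.51% ± 0.496 (SD, n = 8) for IGF2BP and 8.94% ± 2.10 (SD, n = 4) for METTL1 and WDR4, a difference of -6.43 percentage points (two-sided exact permutation test over 495 arrangements, p = 0.00202, the smallest possible; 0.0182 after Benjamini-Hochberg adjustment over 9 measures). Leaving out the bio2 libraries gave -6.39 points (exact permutation p = 0.00476). With the 5 proteins as units it was -6.33 points, and p = 0.1 was the smallest that exact test can give. Among all clusters, introns and noncoding RNA included, the shares were 1.46% ± 0.246 (SD, n = 8) and 2.72% ± 0.981 (SD, n = 4) (exact permutation p = 0.00404, adjusted 0.0182), and here the groups overlapped. The difference was -1.26 points, -1.27 points without the bio2 libraries (exact permutation p = 0.00952) and -2.71 points with single-copy clusters alone (exact permutation p = 0.00606). METTL1 stood at 3.57% and 3.55%, while WDR4, at 2.03% and 1.72%, reached down to the IGF2BP2 libraries at 1.90% and 1.68%.

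**Figure D1:**
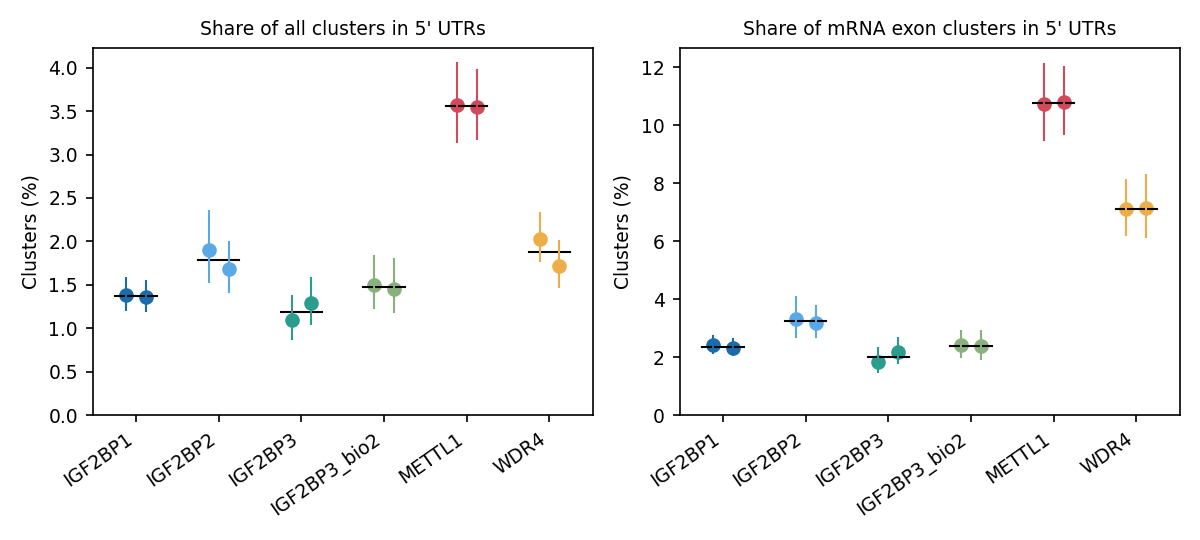
Percentage of clusters in 5' UTRs per library, of all clusters (left axis panel) and of mRNA exon clusters (right panel); points are libraries, thin vertical lines 95% Wilson intervals and horizontal lines the mean of a pair. Both METTL1 libraries lie at 10.7% and 10.8% of mRNA exon clusters, above WDR4 at 7.11% and 7.14% and every IGF2BP library, of which the highest is at 3.31%.

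IGF2 held more 5' UTR clusters than any other gene in these libraries, 96 of the 1753 (5.48%). Its leader, in the MANE Select transcript ENST00000416167.7 on chromosome 11, minus strand, is 1167 nt long, of which 1161 nt are in the first exon (chr11:2138229-2139389). Of the 96 clusters, 92 lay in this leader and 4 in that of another transcript. Over the whole gene IGF2BP1 had 10 and 7 5' UTR clusters, IGF2BP2 10 and 10, IGF2BP3 9 and 8, the bio2 pair 4 and 5, METTL1 8 and 9, and WDR4 9 and 7. All 12 libraries thus had several, with the bio2 pair lowest. As a share of a library's 5' UTR clusters, IGF2 ranged from 3.15% (METTL1 replicate 2) to 13.4% (IGF2BP3 replicate 1).

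The clusters recurred at the same stretches of the leader for all 5 proteins. The outermost 5' site, chr11:2139225-2139384, and its neighbour, chr11:2139079-2139224, were present in 12 of 12 libraries, with midpoints 18 to 130 nt and 214 to 286 nt from the transcript start. Further in, chr11:2139008-2139060 was present in 10 libraries, chr11:2138687-2138750 in 8, chr11:2138512-2138635 in 11 and chr11:2138341-2138389 in 6. The last of these was found in both libraries of IGF2BP1 and IGF2BP2, in 1 each of IGF2BP3 and METTL1, and in no WDR4 library. The clusters together covered 646 of the 1167 nt (55.4%), and single libraries covered 12.9% to 43.7%. The longest uncovered stretch ran from nt 383 to nt 575 of the leader (193 nt), and the last 118 nt before the start codon were uncovered in every library. An 8th site in the gene, chr11:2137199-2137249, lies in the leader of another transcript, was found in 4 libraries and had no single-copy cluster. The leader itself is 48.4% C, 23.99% G, 17.3% T and 10.3% A.

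**Figure D2:**
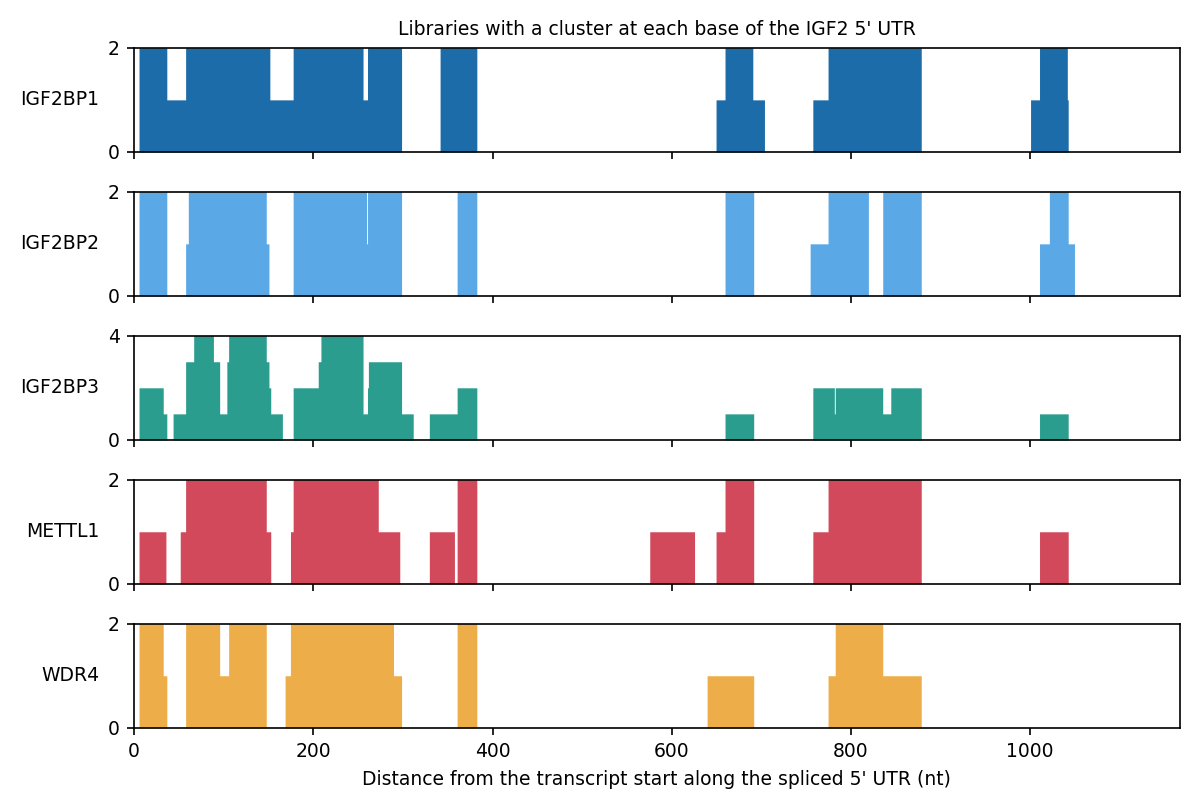
Number of libraries (vertical axis, from 0 to all libraries of the protein) with a cluster at each base of the spliced IGF2 5' UTR; the horizontal axis is the distance from the transcript start in nt. The merged sites with cluster midpoints at 18 to 130 nt and at 214 to 286 nt are present in all 12 libraries. Single bases within these sites are in part covered in fewer libraries. No library has a cluster between nt 383 and 575.

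Beyond IGF2, 3 genes had a 5' UTR cluster in all 12 libraries: PCBP2, an RNA-binding protein that recognises poly(C), PROX1, a transcription factor of liver development, and TRIM71, an RNA-binding ubiquitin ligase of early development. The PCBP2 site had no single-copy cluster (0 of 12, with a median of 285.5 genomic copies of the central 20 nt), and the TRIM71 site had 6 single-copy clusters of 12, whereas 11 of 11 clusters of the leading PROX1 site were single-copy. DR1, a repressor of RNA polymerase II transcription, FN1, the matrix protein fibronectin, and FTL, the ferritin light chain, were found in 11 libraries. A further 10 genes were found in 10 libraries, among them CCNG1 (cyclin G1), DHRS3 (a retinal reductase), PTMS (parathymosin), SCD (stearoyl-CoA desaturase) and HMGA2, an oncofetal chromatin protein. HMGA2 had only 1 single-copy cluster among 20.

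Most genes were seen once. Of the 657 genes, 406 (61.8%) had a 5' UTR cluster in 1 library, and 35 had one in 8 or more. Likewise 552 of the 840 merged sites (65.7%) came from 1 library and 33 from all 5 proteins. Sites were met with METTL1 or WDR4 alone 469 times, with IGF2BP proteins alone 214 times and with both 157 times. Of the 11 genes with a cluster in all 10 libraries without the bio2 label, 7 (CAMK2N1, CCNG1, DHRS3, HMGA2, PABIR2, PTMS and SCD) had none in either bio2 library. The other 4 had a cluster in both. These 11 genes were picked for presence in the other libraries, so only the bio2 pair could lack them. The bio2 libraries had a cluster in 80 and 73 of the 657 genes, so most genes were absent from each.

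**Figure D3:**
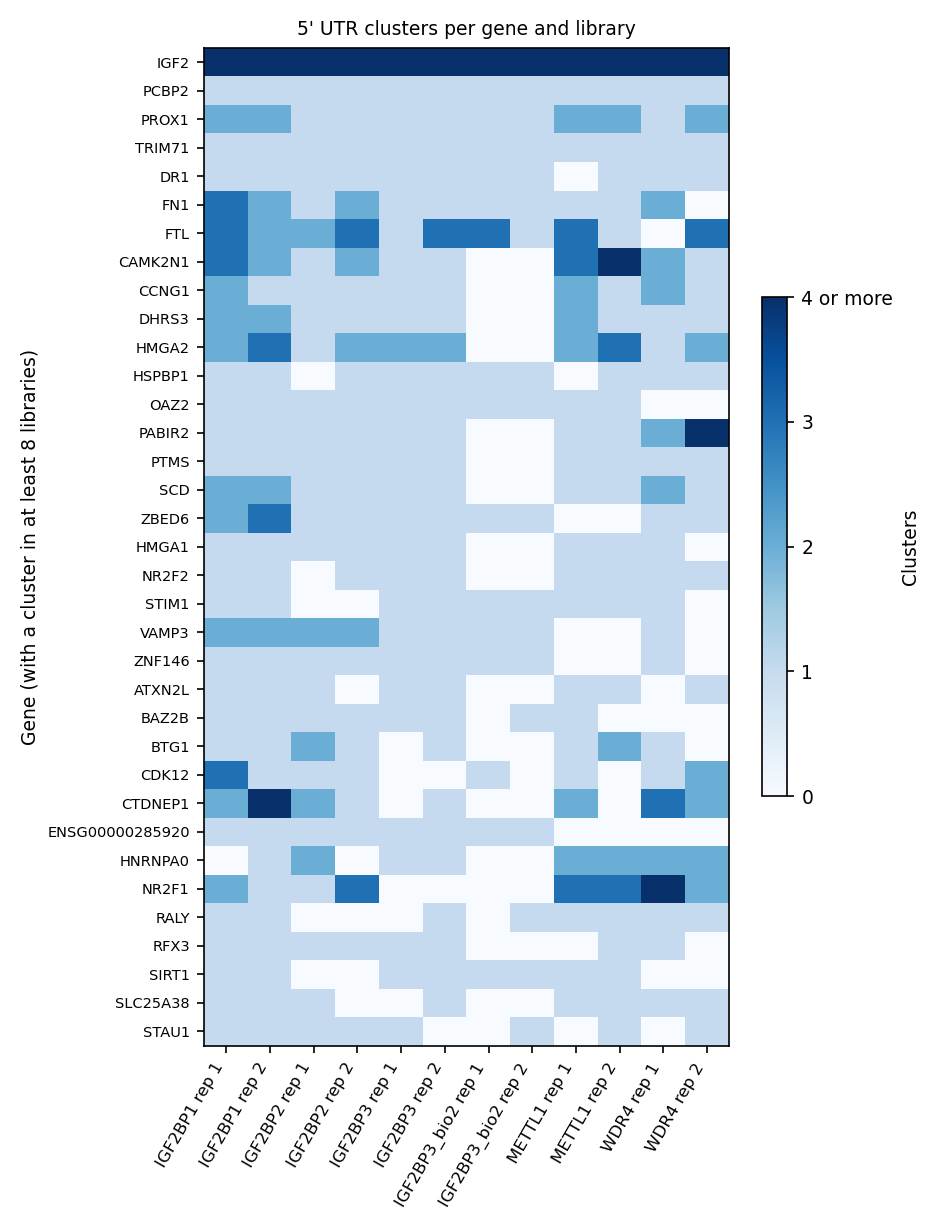
Number of 5' UTR clusters (colour, 0 to 4 or more) per library (columns) for the 35 genes (rows) with a cluster in at least 8 of the 12 libraries. IGF2 has 4 or more in every library. CAMK2N1, CCNG1, DHRS3, HMGA2, PABIR2, PTMS and SCD, named for presence in all 10 other libraries, are empty in the bio2 pair.

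Reproducible sites, that is merged sites of 1 protein present in at least 2 of its libraries, were counted next. IGF2BP1 had 129 of 263 sites (49.0%) in 104 genes, which is 0.541% of all genes with a 5' UTR. IGF2BP2 had 50 of 144 (34.7%) in 38 genes (0.197%), and IGF2BP3 had 98 of 170 (57.6%) in 86 genes (0.447%). METTL1 had 61 of 440 (13.9%) in 52 genes (0.27%), and WDR4 had 49 of 285 (17.2%) in 40 genes (0.208%). METTL1 thus had the most 5' UTR clusters and, among its sites, the lowest reproducible percentage. IGF2BP3 had 4 libraries in which to find a site again. Its first pair alone gave 43 genes and its bio2 pair alone 56, with 19 shared.

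The genes with the most reproducible sites were headed by IGF2 for every protein, where IGF2BP1 had 7 sites, IGF2BP2 10, IGF2BP3 8, METTL1 5 and WDR4 6. Clusters were merged within each protein here, so a count can exceed the 8 sites found in IGF2 when all libraries were merged. The counts depend on clusters that bridge neighbours and on the number of libraries, so they do not rank the proteins. For IGF2BP1 there followed C6orf62 with 5, PTCHD4, a patched-domain protein, with 3. A further 13 genes had 2 each, among them PROX1 and FN1. IGF2BP2 had 2 each in FTL, VAMP3 (a vesicle fusion protein) and NSRP1 (a splicing regulator), and 34 genes, PCBP2 among them, had 1. Both NSRP1 sites lay within the annotated microRNA gene MIR423. IGF2BP3 had 2 each in FTL, HMGA2, FAM72D, PTCHD4 and RPL27A, and FAM72D had no single-copy cluster. METTL1 had 2 each in CAMK2N1, an inhibitor of CaM kinase II, HMGA2, IRF2BP2, NSRP1 and EIF4G2. WDR4 had 3 in MEX3A, an RNA-binding protein, 2 each in CTDNEP1 and HNRNPA0, and 1 in each of 36 genes, PCBP2 among them. Over all libraries, 8 of 17 CTDNEP1 clusters and 5 of 13 HNRNPA0 clusters were single-copy. In C6orf62, VAMP3, NSRP1 and RPL27A the clusters lay mostly in the leader of a transcript other than the MANE Select one.

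The proteins' genes overlapped in part. Any protein had a reproducible site in 171 genes (0.889% of all), and 80 of these had one for 2 or more proteins. All 5 proteins met in 10 genes: CAMK2N1, CCNG1, DHRS3, HMGA2, IGF2, PABIR2, PCBP2, PROX1, PTMS and TRIM71. Some of these rest largely on repeated sequence, as single-copy clusters were 9 of 20 in CAMK2N1, 1 of 20 in HMGA2, 0 of 12 in PCBP2 and 6 of 12 in TRIM71. IGF2BP1 and IGF2BP2 shared 32 genes, which are 30.8% of the IGF2BP1 list and 84.2% of the IGF2BP2 list. METTL1 and WDR4, partners in 1 enzyme, shared 21 genes, 40.4% and 52.5% of their lists. METTL1 shared 28 genes with IGF2BP1, 53.8% of the METTL1 list and 26.9% of the IGF2BP1 list. Of the 71 genes with a reproducible METTL1 or WDR4 site, 28 had none for any IGF2BP protein.

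Of 5 genes with an iron-responsive element in the 5' UTR, a hairpin through which iron controls translation, 3 had a 5' UTR cluster and 2 had a reproducible site. The shares over all genes with a 5' UTR were 3.41% and 0.889%. This list and those below were chosen with earlier results of these data known, so their counts are a description. FTL had clusters in 11 libraries and reproducible sites for all but WDR4. They lay 24 to 198 nt from the start of a 199 nt leader, and 15 of the 25 were single-copy. FTH1, the ferritin heavy chain, had clusters in 6 libraries and reproducible sites for IGF2BP3 and METTL1, none of them single-copy. EPAS1, a hypoxia-inducible factor, had clusters in 4 libraries, and none was reproducible within a protein.

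Of 10 let-7 and oncofetal genes with a 5' UTR, 6 had a cluster and 4 a reproducible site (3.41% and 0.889% over all genes). Besides IGF2 and HMGA2 these were HMGA1, a chromatin protein, and GPC3, a fetal liver surface proteoglycan. HMGA1 had 1 cluster in each of 9 libraries, all at 29 to 30 nt from the transcript start and all single-copy, and it was absent from the bio2 pair and 1 WDR4 library. GPC3 had 1 cluster in each METTL1 library and nowhere else. Among 15 growth and survival genes with a long or structured leader, 3 had a reproducible site. IGF2 was one. CDKN1B, the cell cycle inhibitor p27, had 1 cluster in each METTL1 and WDR4 library at 387 to 388 nt from the start and none in the 8 IGF2BP libraries. JUN, a transcription factor, had 1 cluster in each bio2 library at 131 nt.

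Among 48 initiation and elongation factors, 6 had a cluster and 4 a reproducible site (3.41% and 0.889% over all genes). PABPC1, the poly(A)-binding protein, had one for IGF2BP1 and METTL1 and was found in 6 libraries, EIF4EBP2, a repressor of cap-dependent initiation, had one for IGF2BP1, and EIF4G2, an alternative initiation scaffold, and EEF1D, an elongation factor subunit, had one for METTL1. Of 79 cytosolic ribosomal protein genes, 6 had a cluster and 4, RPL17, RPL27A, RPS15A and RPS3, had a reproducible site. All 4 were found in the bio2 pair only. In 3 of them (RPL17, RPL27A and RPS3) the clusters lay within snoRNA genes, namely SNORD58B, SNORA3A and SNORD15A, and not in RPS15A. In all, 7 of 90 and 7 of 81 bio2 clusters (7.78% and 8.64%) lay in annotated small RNA genes, against 0 in the first IGF2BP3 pair and at most 2.68% elsewhere.

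Of 13 genes with known upstream reading frames, none had a 5' UTR cluster in any library. Of 26 secreted liver plasma protein genes, 4 (AFP, APOA1, APOC3 and C3) had a cluster and none a reproducible site. Of 30 RNA-binding and decay factors, 4 had a cluster and only PCBP2 a reproducible site. IGF2BP1 itself had a single cluster, in METTL1, and among 6 transcripts followed in the study CYRIB had 1 cluster, in a WDR4 library. Over all genes with a 5' UTR, 3.41% had a cluster and 0.889% a reproducible site.

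Genes with 5' UTR clusters had long leaders. The median MANE Select 5' UTR was 136 nt over 18763 genes and 247 nt over the 652 genes with a cluster that have one, and it ran from 313 nt to 392 nt for the genes with a reproducible site of a given protein. A longer leader holds more positions in which a cluster can lie, so this is no measure of preference. The clusters lay mostly in the first exon (82.2% to 94.9% of a library's clusters) and 57 of 1753 (3.25%) reached into coding sequence. A MANE Select transcript was present at the midpoint of 1361 of the 1753 (77.6%). For PTMS, EEF1D, RPL17, RPS3, C6orf62, VAMP3, NSRP1 and RPL27A, among others, the transcript used most often was another one.

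Along the spliced leader, METTL1 and WDR4 clusters lay nearer to the transcript start. The median distance was 129 nt and 142.5 nt for METTL1 and 146 nt and 144 nt for WDR4. It was 227 nt and 215 nt for IGF2BP1, 161 nt and 153 nt for IGF2BP2, 230 nt and 208 nt for IGF2BP3 and 158 nt and 155 nt for the bio2 pair. No IGF2BP library was as near as any METTL1 or WDR4 library, though IGF2BP2 and the bio2 pair came close to WDR4. The means were 188 nt ± 34.5 (SD, n = 8) and 140 nt ± 7.72 (SD, n = 4), a difference of 48.0 nt (exact permutation p = 0.0222, adjusted 0.0436). Without the bio2 libraries it was 58.6 nt (exact permutation p = 0.00952), and with proteins as units it was 48.2 nt (exact p = 0.2). With 1 cluster per gene it was 38.6 nt (exact permutation p = 0.0263). The leaders that held the clusters had library medians of 361 to 431 nt for METTL1 and WDR4 and 405 to 578 nt for IGF2BP. The part of leader length in the difference was not tested. Clusters within 50 nt of the transcript start made up 14.7% and 16.6% in METTL1 and 7.23% to 12.8% elsewhere.

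Distance to the start codon did not pass the test. The library medians were 168 to 227 nt for IGF2BP and 168 to 221 nt for METTL1 and WDR4, with means of 203 nt ± 21.6 (SD, n = 8) and 190 nt ± 22.2 (SD, n = 4) (exact permutation p = 0.345). The difference of 13 nt was 23.4 nt without the bio2 libraries (exact permutation p = 0.0571), and leaving out 1 library at a time it ranged from 5.58 to 23.3 nt. Clusters within 50 nt upstream of the start codon were most frequent in the bio2 pair, at 22.2% and 18.5%, and made up 6.33% to 15.7% elsewhere. As a fraction of the leader's length from its start, the midpoint lay at 0.479 ± 0.0295 (SD, n = 8) for IGF2BP and 0.432 ± 0.0232 (SD, n = 4) for METTL1 and WDR4. This passed the exact permutation test on its own (p = 0.0343) and not after adjustment (0.0515), and without the bio2 libraries p was 0.0810 in the same exact test. IGF2BP3 and IGF2BP1-2 lay at 0.489 and 0.469 (exact permutation p = 0.314), and the difference of 0.0203 was 0.0184 without the bio2 libraries (exact permutation p = 0.6). No library crowded at either end: the first 20% of the leader held 13.4% to 24.7% of a library's clusters and the last 20% held 10.7% to 18.1%.

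5' UTR clusters were rich in C and poor in G and A against the annotated 5' UTR. C made up 39.6% to 49.8% of cluster bases, against 28.4% of all annotated 5' UTR bases, and T 23.8% to 31.1%, against 21.2%. G made up 8.22% to 22.3%, against 29.8%, and A 8.67% to 18.2%, against 20.6%. All 12 libraries lay on the same side of the annotated level for each of the 4 bases. RNase T1 cuts after G and cluster calling rests on converted T, and low G was also seen in the same libraries' 3' UTR clusters (5.18% to 17.5%) and coding sequence clusters (5.05% to 19.8%); the part of either step in the values was not tested.

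**Figure D4:**
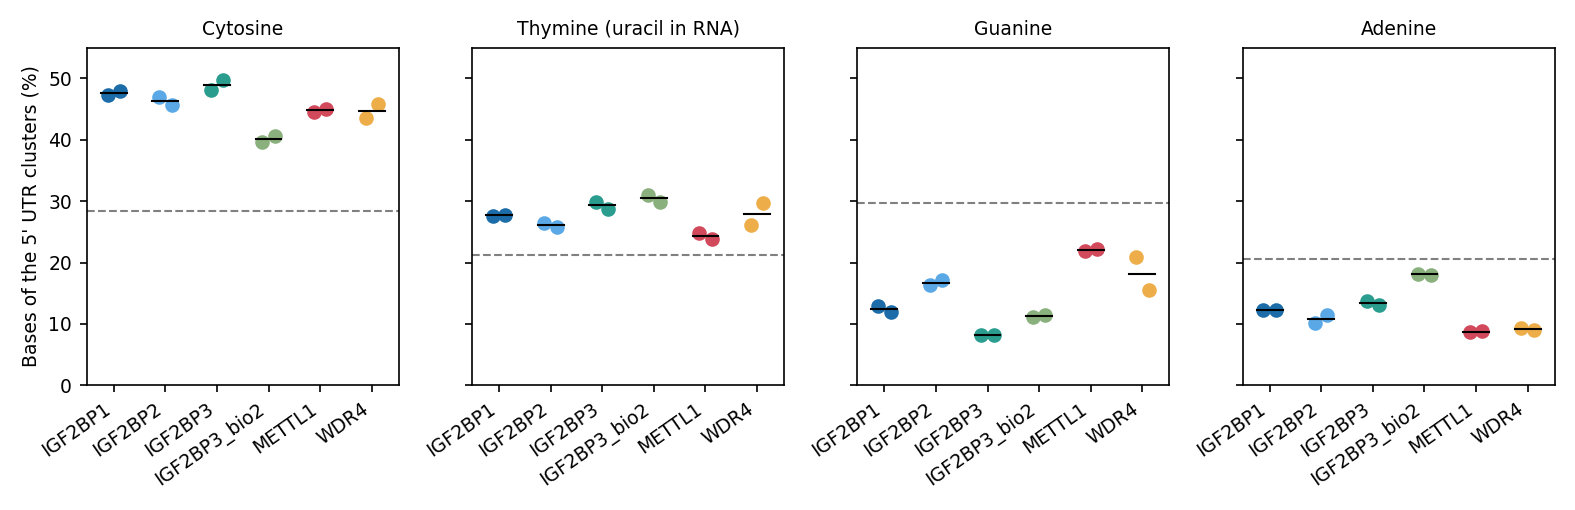
Percentage of each base in the 5' UTR clusters of each library (points; horizontal lines are the mean of a pair), with the dashed line at the level of all annotated 5' UTR bases. C lies at 39.6% to 49.8% against 28.4% and G at 8.22% to 22.3% against 29.8%, with G highest in METTL1.

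Pyrimidine runs were frequent. The central 30 nt held at least 6 C or U in a row in 89.6% and 90.4% of IGF2BP3 first-pair clusters, 70.1% to 78.5% of IGF2BP1 and IGF2BP2 clusters, 70.0% and 71.6% in the bio2 pair and 59.9% to 69.1% in METTL1 and WDR4, against 30.4% of all 30 nt windows centred in annotated 5' UTRs. Motifs were then sought on the transcript strand in clusters widened by 10 nt on each side, beside all 55 nt windows centred in annotated 5' UTRs. Library medians of cluster width were 32 to 34 nt for METTL1 and WDR4 and 32.5 to 43 nt for IGF2BP, so the stretches searched were of unequal length. The part of width in the motif shares, here and below, was not tested. CUCC was present in 56.7% to 77.6% of clusters against 32.8% of windows, and CCUC, which overlaps it in the string CCUCC, in 59.8% to 80.7% against 30.5%. AUG was present in 10.4% to 28.9% against 39.8%, highest in the bio2 pair at 28.9% and 25.9%. CGGC was present in 48.8% and 44.4% of METTL1 clusters, 36.4% and 33.6% of WDR4 clusters, 19.3% to 38.0% of IGF2BP1, IGF2BP2 and first-pair IGF2BP3 clusters and 14.4% and 14.8% in the bio2 pair, against 26.1%. GGGG, in the central 30 nt, was present in 14.7% and 19.9% for METTL1 and 20.3% and 12.8% for WDR4, close to the 16.1% of windows, and in 2.41% to 11.4% for the IGF2BP libraries. A match is a description of the letters and not of a bound site.

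GC content was higher in METTL1 and WDR4 clusters. METTL1 stood at 66.5% and 67.3%, WDR4 at 64.4% and 61.3%, IGF2BP1 at 60.2% and 59.9%, IGF2BP2 at 63.4% and 62.9%, IGF2BP3 at 56.4% and 58.1% and the bio2 pair at 50.7% and 52.1%. The IGF2BP2 libraries lay above the lower WDR4 library. The means were 58.0% ± 4.64 (SD, n = 8) and 64.9% ± 2.69 (SD, n = 4) (exact permutation p = 0.0242, adjusted 0.0436), and leaving out the bio2 libraries gave a difference of -4.74 points in place of -6.92 (exact permutation p = 0.0333). Leaving out METTL1 replicate 1 or replicate 2 ended this call, with p up to 0.0606 in the exact permutation test. The gap was of like size in the same libraries' coding sequence clusters (-8.96 points) and 3' UTR clusters (-6.32 points). T content did not differ past the threshold, at 28.4% ± 1.83 (SD, n = 8) and 26.2% ± 2.59 (SD, n = 4) (exact permutation p = 0.109), and the difference of 2.23 points was 1.53 points without the bio2 libraries (exact permutation p = 0.267).

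CAU followed by A, C or U (CAUA, CAUC or CAUU), the short element known from IGF2BP sites, was more frequent with the IGF2BP proteins. It was present in 33.3% and 35.1% of IGF2BP1 clusters, 27.8% and 27.4% of IGF2BP2 clusters, 49.3% and 44.6% of IGF2BP3 clusters and 56.7% and 56.8% of bio2 clusters. METTL1 had it in 19.8% and 16.1% and WDR4 in 21.4% and 19.5%, and 29.1% of all annotated windows held it. The groups did not overlap. The means were 41.4% ± 12.1 (SD, n = 8) and 19.2% ± 2.23 (SD, n = 4) (exact permutation p = 0.00808, adjusted 0.0242), and the difference of 22.2 points became 17.1 points without the bio2 libraries (exact permutation p = 0.00952). IGF2BP1 and IGF2BP2 thus lay near the annotated level and METTL1 and WDR4 below it. In the same libraries the element was more frequent in coding sequence clusters, at 69.1% and 43.9%, and in 3' UTR clusters, at 65.5% and 45.8%.

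Within the family, the 4 IGF2BP3 libraries differed from the IGF2BP1 and IGF2BP2 libraries in base content. The test compares libraries, and it was not run with proteins as units, so it cannot decide on a difference between proteins. Mean GC was 60.04% for IGF2BP1, 63.1% for IGF2BP2, 57.2% for the first IGF2BP3 pair and 51.4% for the bio2 pair. The IGF2BP3 5' UTR clusters had 54.3% ± 3.45 GC against 61.6% ± 1.79 and 29.9% ± 0.932 T against 26.9% ± 0.963. They held the CAU element in 51.8% ± 5.98 against 30.9% ± 3.90 (SD, n = 4 each). For each of these the groups did not overlap, and p was 0.0286, the smallest that 70 arrangements allow in the two-sided exact permutation test (adjusted over 5 measures, 0.0476). Without the bio2 libraries the differences were -4.36 points, 2.41 points and 16.003 points. The exact permutation p was 0.133 for GC and 0.0667, the smallest possible, for T and the CAU element. For GC, leaving out any 1 of the 4 IGF2BP1 and IGF2BP2 libraries raised the exact permutation p to 0.0571. The share of clusters in 5' UTRs did not pass the test, at 1.34% ± 0.185 and 1.58% ± 0.257 (SD, n = 4 each, exact permutation p = 0.2). That difference of -0.247 points was -0.391 points without the bio2 libraries (exact permutation p = 0.133) and -0.707 points with single-copy clusters alone (exact permutation p = 0.114). The same contrast in 3' UTR clusters was -6.60 points for GC, 3.58 for T and 18.3 for the CAU element.

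Against the 3' UTR clusters of the same library, 5' UTR clusters were richer in GC in 12 of 12 libraries, by 12.3 to 16.2 points with a mean of 14.1 (exact sign-flip permutation test, p = 0.000488, the smallest possible). Annotated 5' UTRs hold 58.2% GC. The level of annotated 3' UTRs was not calculated, so this difference cannot be separated from the base content of the regions themselves. The clusters were narrower by 3 nt on average, with library medians averaging 35.5 nt against 38.5 nt (exact sign-flip permutation test, p = 0.0313), narrower in 8 of 12 libraries, equal in 2 and wider in 2. They were wider than coding sequence clusters by 2.58 nt (exact sign-flip p = 0.0117). The difference in width from 3' UTR clusters was -1.33 nt and did not pass (exact sign-flip p = 0.121) when clusters with a single-copy centre alone were used. A single-copy centre was found in 70.7% to 85.3% of a library's 5' UTR clusters, with 77.3% ± 4.67 (SD, n = 8) for IGF2BP and 80.1% ± 5.59 (SD, n = 4) for METTL1 and WDR4 (exact permutation p = 0.376; a difference of -2.79 points, and -4.49 points without the bio2 libraries, exact permutation p = 0.181).

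Replicates shared fewer 5' UTR clusters than 3' UTR clusters. Between replicates, 66.2% of IGF2BP1 5' UTR clusters overlapped one of the partner library, against 76.4% of 3' UTR clusters. The values were 52.0% and 59.99% for IGF2BP2, 68.0% and 78.2% for the first IGF2BP3 pair, 70.8% and 71.5% for the bio2 pair, 24.9% and 36.3% for METTL1 and 29.8% and 40.1% for WDR4. The mean difference over the 5 proteins was -9.07 points, negative in each, and with 5 proteins the exact sign-flip permutation test cannot go below the p = 0.0625 that it gave. Against coding sequence clusters the difference was -0.628 points (exact sign-flip p = 0.8125).

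METTL1 replicates shared 5' UTR clusters with each other about as often as with WDR4, less often than with IGF2BP1 and more often than with the bio2 pair, with no test of these differences. They overlapped in 24.9% between each other, in 21.4% to 25.4% with WDR4 libraries and in 28.4% to 30.8% with IGF2BP1 libraries. IGF2BP1 and IGF2BP2 libraries overlapped in 39.1% to 48.2%, and IGF2BP3 with METTL1 in 9.12% to 27.0%. These shares move with the number of clusters in each library, and the numbers differ.

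**Figure D5:**
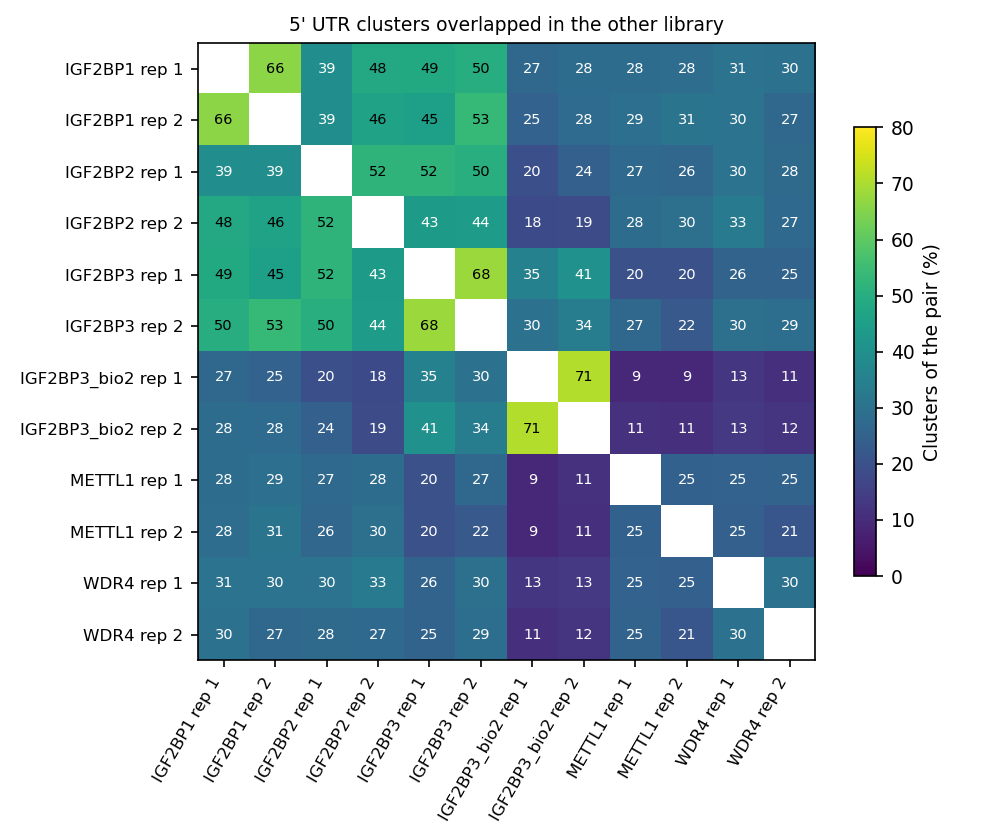
Percentage of the 5' UTR clusters of both libraries of a pair that share at least 1 nt with any cluster of the partner library (colour and numbers), for all pairs of the 12 libraries. The bio2 pair shares 70.8% within itself and 30.1% to 40.5% with the first IGF2BP3 pair, while the METTL1 pair shares 24.9%.

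Of the genes with a 5' UTR cluster, 63.9% to 75.8% had no coding sequence or 3' UTR cluster in the same METTL1 or WDR4 library. In the IGF2BP libraries this was 32.3% to 60.3%. Most of all genes with a 5' UTR also had neither in a METTL1 or WDR4 library, as 1.59% to 3.01% had a coding sequence cluster and 5.04% to 6.65% a 3' UTR cluster. Clusters in mRNA exons numbered 2025 to 2648 in METTL1 and WDR4 libraries and 2388 to 8800 in IGF2BP libraries. The part of this number in the shares was not tested. A 3' UTR cluster was present in 17.5% to 24.9% of the genes with a METTL1 or WDR4 5' UTR cluster, where 5.04% to 6.65% of all genes with a 5' UTR had one. With the IGF2BP proteins the values were 26.0% to 54.0% and 6.34% to 15.997%. In every library the genes with a 5' UTR cluster had a 3' UTR cluster more often than all genes did, and no level of the mRNA was at hand to set this against.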

How the data were processed

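PAR-CLIP clusters of 5 proteins in HepG2 cells were taken as deposited. The authors, by the methods they describe, used the FASTX toolkit to filter and clip reads, collapsed duplicates, mapped with Bowtie and called clusters with PARalyzer. The submitters' processing notes name Bowtie and hg38, and tool versions and PARalyzer settings are not given in the sources used here. The deposited values are interval coordinates on hg38, with no score or read count, and starts were read as counted from 1. Mapping allowed reads with several genomic positions, so the copies of each cluster's central 20 nt in hg38 were counted.

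Clusters were assigned by midpoint to GENCODE release 44. Where several transcripts fitted, the MANE Select, then the Ensembl canonical, then the lowest transcript identifier was used for distances. Groups were compared over libraries by two-sided exact permutation tests, and regions within libraries by exact sign-flip permutation tests, at a threshold of 0.05, with Benjamini-Hochberg adjustment within each family. Python 3.11.15, numpy 2.4.6, pandas 2.3.3, scipy 1.17.1, statsmodels 0.14.6, pysam 0.24.0 and matplotlib 3.10.9 were used, and the scripts were tested on simulated data (10 checks). Shares carry 95% Wilson intervals. Genes named were the 5 with the most reproducible sites per protein (ties are stated), members of 10 gene lists and genes of the 15 sites in the most libraries; others were chosen after their values were seen. The members and lists were chosen with earlier results of these data known. Alternatives were other transcript choices, single-copy clusters alone, 1 cluster per gene, leaving out libraries, proteins as units, a replicate block and, chosen after seeing the data, leaving out clusters in small RNA genes. Some sequences of sites named in the text are not reported here.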

Additional observations from a re-analysis of the deposited data

Results flagged for a closer look

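The median relative position of WDR4 replicate 1 stood apart from the other METTL1 and WDR4 libraries. It lay at 0.397 of the 5' UTR length, against 0.441 to 0.444 in the other 3 libraries, and its gap to the nearest was 0.933 of the range of the 4. Of 27 combinations of group and measure examined this was the one past Dixon's critical value, and chance alone passes about 1 group in 20.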

How the results depend on the processing

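Of 328 alternative values over 22 results, 289 kept their direction and their side of the threshold (counts of genes, within 1.5 times). With proteins as units, where the exact permutation test cannot go below p = 0.1, the IGF2BP minus METTL1-WDR4 differences were -1.22 points for the 5' UTR share, -6.33 points among mRNA exon clusters, 48.2 nt to the transcript start, 0.0440 in relative position, -5.71 points of GC and 18.7 points for the CAU element, none past the threshold. Likewise the 5' minus 3' UTR differences were 14.2 points of GC (exact p = 0.0625, the smallest possible) and -3.83 nt of width (exact p = 0.1875). Without the bio2 libraries, calls ended for relative position (0.0433) and for IGF2BP3 against IGF2BP1-2 in GC (-4.36), T (2.41) and the CAU element (16.003). Replicate numbers did not pair the libraries: 15 correlations of replicate differences ran from -0.0409 to 0.139, with 1 above 0.1. With the replicate block, IGF2BP3 against IGF2BP1-2 kept differences of -7.25 in GC, 2.99 in T and 20.9 in the CAU element at exact p = 0.0556, the smallest possible under the block, and no other call changed. With single-copy clusters alone, the T difference was 3.14 points (exact p = 0.0364), the width difference was -1.33 nt (exact p = 0.121) and WDR4 had 26 genes with a reproducible site in place of 40. On MANE Select transcripts alone the IGF2BP3 share differed by -0.270 points (exact p = 0.0286). IGF2BP3 had 43 genes from its first pair and 56 from its bio2 pair, in place of 86. Directions turned for distance to the start codon with 1 cluster per gene (-3.19 nt, exact p = 0.855), for relative position of IGF2BP3 on the longest 5' UTR (-0.0223, exact p = 0.343) and for width against coding sequence clusters (2.58 nt). Leaving out 1 library at a time, relative position ranged from 0.0358 to 0.0537 and lost its call without either WDR4 library. GC ranged from -8.11 to -5.89 and lost it without either METTL1 library. T ranged from 1.45 to 3.43 and passed without WDR4 replicate 2. For IGF2BP3 against IGF2BP1-2, relative position ranged from 0.00885 to 0.0390 and passed without IGF2BP1 replicate 1, and GC ranged from -8.49 to -6.06 and lost its call without any 1 IGF2BP1 or IGF2BP2 library. Width ranged from -3.73 to -2.45 nt and lost its call without IGF2BP2 replicate 1 or any 1 METTL1 or WDR4 library. The causes were not tested. Read depth is unknown, and a site missing from a library may have been under its calling threshold.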
